A study of Mus musculus with 6 samples.

Results

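The noncoding transcripts at 6 genes of atrial muscle identity, Myl7, Myl4, Dkk3, Clu, Pam and Fgf12, were followed in left atria of mice that overexpressed FOG2. A transcribed region of the authors' deposited table (a feature) was taken if it overlapped the body of one of these genes in GENCODE M21. It was also taken if it overlapped no protein-coding gene and had one of them as its nearest protein-coding gene start within 100 kb. The rule took 48 of 34518 features: 25 at Pam, 11 at Fgf12, 6 at Myl7, 3 at Myl4, 2 at Clu and 1 at Dkk3. Of these, 39 overlapped a gene body and 9 were intergenic. The libraries were 3 of FOG2 overexpression (FOG2_OE) and 3 of wild type (WT), taken from the left atrium of adult mice of the outbred CD1 stock, and every animal had been off doxycycline for 1 week. The labels also call the animals DTG and NTG without spelling these out, and name neither the promoter that drives FOG2 nor the cells in which it acts. RNA had been depleted of ribosomal and polyadenylated species, so that transcripts without a poly(A) tail were enriched. The kit does not mark strand, and "opposite strand" below means only the strand that the table lists.

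Atrial and ventricular muscle differ in the contractile and secretory proteins they make. Myl7 encodes the atrial regulatory myosin light chain and Myl4 the atrial essential light chain, both parts of the thick-filament motor. Pam encodes the enzyme that amidates peptides and is an abundant membrane protein of atrial secretory granules. Dkk3 encodes a secreted glycoprotein of the Dickkopf family, and Clu encodes clusterin, a secreted chaperone. Fgf12 encodes a fibroblast growth factor homologous factor, which stays inside the cell and modulates voltage-gated sodium channels. FOG2, the product of Zfpm2, binds GATA factors such as GATA4 and modifies how they regulate cardiac genes.

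The 250 bases upstream of the Myl7 start (chr11:5898783-5899032, minus strand) lay wholly inside MSTRG.11513, a feature that was lower in FOG2_OE, and are shown with those of Myl4 (chr11:104550413-104550662, plus strand), whose features did not pass the test. Both come from RefSeq on GRCm38.p6 and run 5′ to 3′ toward the gene start.
Myl7: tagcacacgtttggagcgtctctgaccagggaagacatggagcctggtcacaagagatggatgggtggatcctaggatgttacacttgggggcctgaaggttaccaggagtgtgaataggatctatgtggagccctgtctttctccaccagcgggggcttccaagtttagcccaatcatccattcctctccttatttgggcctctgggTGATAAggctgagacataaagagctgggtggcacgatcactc
Myl4: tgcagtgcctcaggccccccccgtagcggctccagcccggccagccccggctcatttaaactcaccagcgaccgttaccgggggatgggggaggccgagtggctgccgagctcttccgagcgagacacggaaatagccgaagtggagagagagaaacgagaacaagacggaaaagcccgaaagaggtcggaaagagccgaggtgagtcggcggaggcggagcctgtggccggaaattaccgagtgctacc
Capitals mark a GATA word, which is GATA with A or T before it and A or G after it, searched on either strand. The Myl7 window held 1 such word, TGATAA, from base -42 to base -37 relative to the start, and the Myl4 window held none. A GATA word occurs in 26.5% of 32851 promoter windows of this length. A T-box word, AGGTGT or GGTGTGA on either strand, was in neither window and occurs in 13.8% of all. The RefSeq table held windows for 4 of the 6 genes, 8 windows in all; the other windows, of Pam and Fgf12, held no GATA word and 1 T-box word, at an inner Fgf12 start.

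Depth was even between the groups. The table implies effective library sizes, in units of 1000000 reads, of 79.7, 72.5 and 84.9 for FOG2_OE replicates 1 to 3, against 71.2, 78.4 and 82.3 for WT replicates 1 to 3. The sample columns hold fitted values of the authors' model, which within a group differ only by library size. They are given as CPM, fitted counts per 1000000 reads of the effective library, and carry no spread between replicates, so that overlap of the groups could not be read. Errors are therefore the standard errors of the log2 fold change implied by the authors' likelihood ratio, and intervals are 95% intervals from these, by the normal distribution. At Zfpm2, the feature MSTRG.29831 over the gene body had fitted counts of 33174, 30172 and 35352 in FOG2_OE, against 34.4, 37.9 and 39.8 in WT, the direction that the labels give. Over all features the authors' deposited table has a median log2 change of -0.21, and changes are read against it.

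Of the transcripts, 3 of 6 at Myl7, both at Clu and the 1 at Dkk3 fell in FOG2_OE, those at Myl4 did not pass the test in either direction, and those at Pam and Fgf12 lay mostly below 0 with 1 call. In whole atria, fewer cells of a type and less RNA per cell cannot be told apart. By the authors' deposited table, 7 of the 48 passed as lower and 0 as higher, with a likelihood ratio p, adjusted by Benjamini-Hochberg over all features, under 0.05. The calls were 3 at Myl7, 2 at Clu, 1 at Dkk3 and 1 at Fgf12. That is 14.6% of these 48 lower, where the whole of the authors' deposited table has 4.65% lower and 1.16% higher. At an adjusted p under 0.01, the authors' deposited table has 5 of the 48 lower and 0 higher, where 2.69% of all features are lower and 0.608% higher. With no adjustment, 20 of the 48 (41.7%) had p under 0.05 as lower and 1 as higher per the authors' deposited table, where 12.5% of all features did as lower and 4.52% as higher. Their median log2 change was -0.96 per the authors' deposited table, and 41 of them (85.4%) lay below 0, against 60.6% of all features. With the median ratio of all features centred at 1, 38 of the 48 (79.2%) lay below 0, and 5 were called lower and 0 higher, against 3.47% of all features lower and 1.62% higher. The genes were chosen with earlier results of these data known, so that these shares describe the 48 and do not test them.

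The calls depended on the distribution against which the likelihood ratio was read. Under an F test in which 10 degrees of freedom are left for the residual, 2 features, both downstream of Myl7, passed as lower, where 1.07% of all features passed as lower and 0.203% as higher. Under one with 4, which is what 6 libraries in 2 groups leave, 0 passed, where 0% of all features did. Not even MSTRG.29831 at Zfpm2 passed, so that the lack of calls at this setting is not particular to the 48. The smallest adjusted p among the 48 was then 0.583, with 9 lower and 0 higher before adjustment, where 5.58% of all features were lower and 1.53% higher (F test on the authors' likelihood ratio). Among features with a mean fitted count of at least 10, 4 of 24 were called lower and 0 higher, where 6.91% of all such features were lower and 1.72% higher (the authors' p-values adjusted again over those kept).

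**Figure D1:**
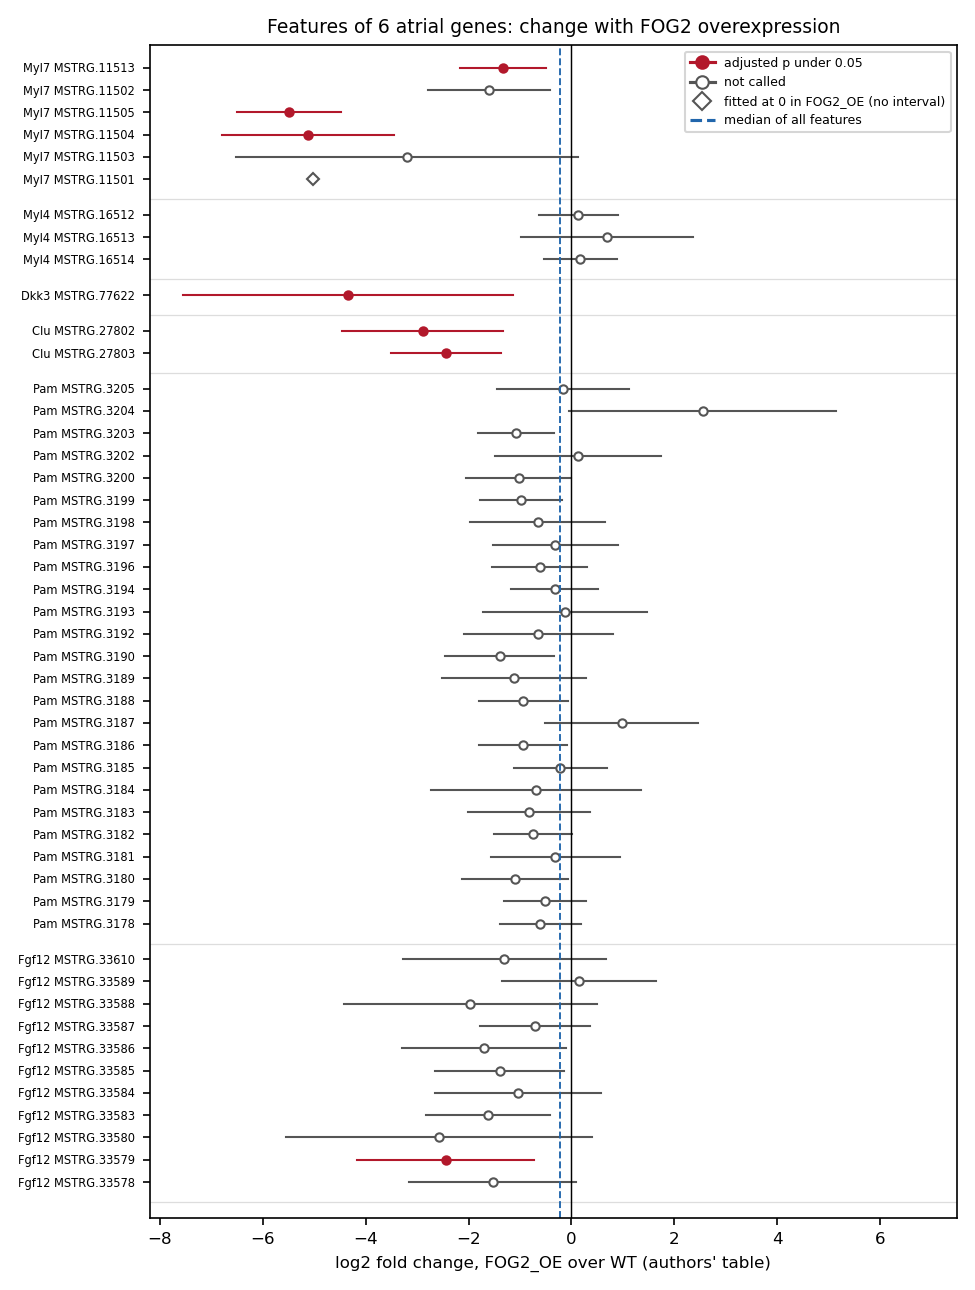
Log2 fold change of FOG2_OE over WT (x axis, from the authors' deposited table) for each of the 48 features, grouped by gene, with bars as 95% intervals from the implied standard errors. Red points are the 7 features called lower; the 3 Myl4 points lie right of 0, and most Pam and Fgf12 points lie left of the dashed median of all features.

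Myl7 had the largest fitted folds with a call. Its gene is short, 2.15 kb on the minus strand of chromosome 11 (5896637 to 5898782), and its 6 features were 1 over the gene start and 5 past the gene end. MSTRG.11505 (chromosome 11, 5889729 to 5891720), which begins 4.92 kb past the end of Myl7 and is listed on its strand, overlapped no annotated gene. Its fitted counts were 6.33, 5.76 and 6.75 in FOG2_OE replicates 1 to 3, against 260, 286 and 300 in WT replicates 1 to 3. It thus stood at 0.0795 CPM in FOG2_OE, against 3.65 CPM in WT, 45.9-fold lower. Its log2 fold change per the authors' deposited table was -5.49 (implied SE 0.52, interval -6.51 to -4.48, adjusted p = 4.9e-22).

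MSTRG.11504 (chromosome 11, 5889618 to 5891111) covers the same stretch and is listed on the opposite strand. Of its 1494 bases, 1383 (92.6%) are shared with MSTRG.11505, so that the 2 features cannot be taken as separate observations. It had fitted counts of 1.34, 1.22 and 1.43 in FOG2_OE, against 45.6, 50.3 and 52.7 in WT. By the authors' deposited table it changed by -5.13 on the log2 scale (implied SE 0.85, adjusted p = 3.0e-11). These were also the 2 features that passed with 10 residual degrees of freedom, with adjusted p = 0.0022 and 0.0085 (F test on the authors' likelihood ratio).

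Closer to the gene the folds were smaller. MSTRG.11502 (chromosome 11, 5894289 to 5895713), 0.924 kb past the end of Myl7 and on its strand, was the most abundant of the 6, with fitted counts of 104, 94.5 and 111 in FOG2_OE, against 283, 312 and 327 in WT. Its level was 1.30 CPM in FOG2_OE against 3.98 CPM in WT, and its log2 fold change of -1.61 did not pass per the authors' deposited table (implied SE 0.60, interval -2.79 to -0.43, adjusted p = 0.108). MSTRG.11513 (chromosome 11, 5897751 to 5899178), listed opposite to Myl7, runs over the gene start and through 4 of its exons, which make up 317 of its 1428 bases. It had fitted counts of 62.9, 57.2 and 67.0 in FOG2_OE, against 141, 156 and 163 in WT. That is 0.789 CPM in FOG2_OE against 1.98 CPM in WT, with a log2 fold change of -1.33 per the authors' deposited table (implied SE 0.43, adjusted p = 0.0425). This call sat just inside the threshold and was lost at the centred scale (adjusted p = 0.125, likelihood ratio recomputed from the authors' fitted values).

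The 2 remaining Myl7 features were scarce. MSTRG.11501, 7.80 kb past the gene end, was listed at 0 in FOG2_OE and at 0.0503 CPM in WT, which is at least 3.97-fold lower where 0 is replaced by 3 counts over the group, and just missed the call per the authors' deposited table (adjusted p = 0.0622). MSTRG.11503 held 1 count over FOG2_OE and 12 over WT after rounding, a ratio of 0.0818 (95% counting interval 0.0019 to 0.551). It was not called per the authors' deposited table (log2 fold change -3.19, interval -6.52 to 0.14 from the implied SE, adjusted p = 0.125). Summed over the 4 features from 4.92 kb past the gene end onward, the level was 0.10 CPM in FOG2_OE against 4.39 CPM in WT, 43.7-fold lower. Summed over all 6, it was 2.19 CPM in FOG2_OE against 10.4 CPM in WT, 4.72-fold lower. Both sums count the overlapping MSTRG.11504 and MSTRG.11505 in full.

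Neighbouring genes set the Myl7 stretch in context. Within 100 kb of Myl7 lay 13 other features, of which none was called per the authors' deposited table (3 lower and 0 higher before adjustment). Their median log2 change was -0.96 per the authors' deposited table. MSTRG.11488 at Pgam2, which encodes the muscle phosphoglycerate mutase, stood at 2.19 CPM in FOG2_OE against 2.17 CPM in WT. Whether the Myl7 features differed from these neighbours was not tested.

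**Figure D2:**
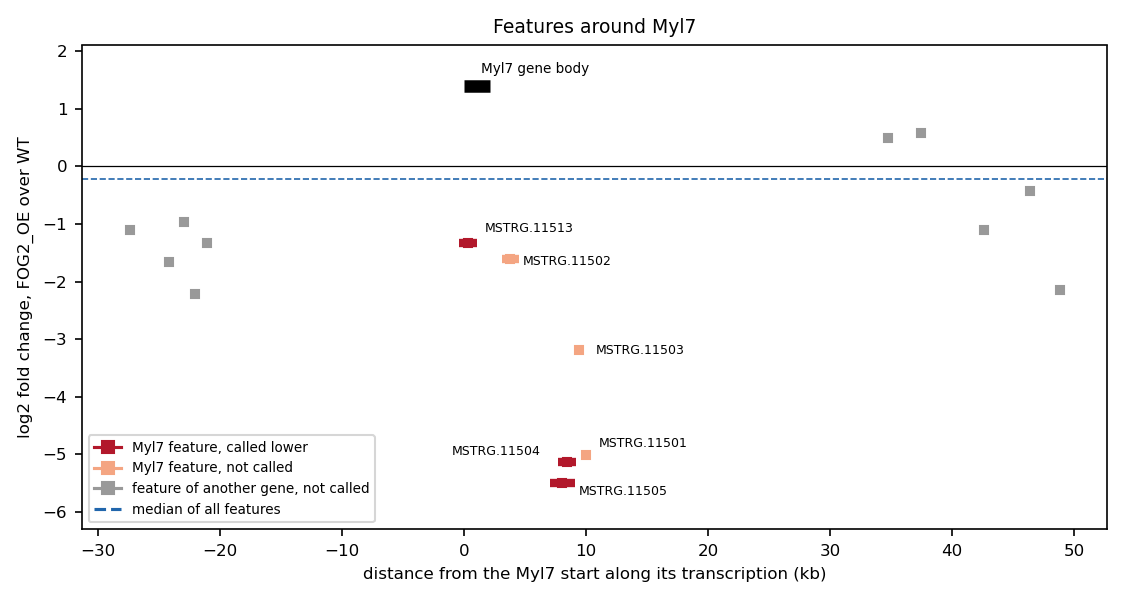
Log2 fold change of FOG2_OE over WT (y axis, from the authors' deposited table) against distance from the Myl7 start along its transcription, in kb (x axis), for features within 60 kb; squares mark feature centres and bars their extent. MSTRG.11504 and MSTRG.11505 lie below -5, whereas MSTRG.11513 and MSTRG.11502 lie between -2 and -1, among the values of grey features linked to other genes; the point of MSTRG.11501, listed at 0 in FOG2_OE, is the table's fitted value and no bound.

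The other atrial light chain gene, Myl4, gave no call, and none with an unadjusted p under 0.05. Its 3 features, all listed opposite to the gene inside its body on chromosome 11 (104550663 to 104595753), summed to 2.94 CPM in FOG2_OE against 2.59 CPM in WT. MSTRG.16514 (chromosome 11, 104577310 to 104584613) had fitted counts of 174, 158 and 185 in FOG2_OE, against 138, 152 and 159 in WT. It overlaps 2990 bases of Myl4 exons and had a log2 fold change of 0.18 per the authors' deposited table (implied SE 0.37, interval -0.54 to 0.89, adjusted p = 0.87). MSTRG.16512 (chromosome 11, 104556812 to 104558629) lies in an intron, 6.15 kb from the Myl4 start, over the annotated noncoding genes Gm11665 and Gm22000. Its fitted counts were 53.0, 48.2 and 56.5 in FOG2_OE, against 43.1, 47.5 and 49.8 in WT. It stood at 0.665 CPM in FOG2_OE against 0.606 CPM in WT, with a log2 fold change of 0.13 per the authors' deposited table (interval -0.63 to 0.90, adjusted p = 0.912). MSTRG.16513, also in an intron, was at 0.0907 CPM in FOG2_OE against 0.0557 CPM in WT (log2 fold change 0.69 per the authors' deposited table, implied SE 0.85, adjusted p = 0.741). By these normal intervals, MSTRG.16514 and MSTRG.16512 leave out a fall by 1 on the log2 scale. That of MSTRG.16513 reaches down to -0.98 on few fitted counts, so that such a fall cannot be left out for it.

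Both Clu features fell. MSTRG.27803 (chromosome 14, 65982369 to 65983196) begins 0.822 kb past the end of Clu on the gene's strand. It had fitted counts of 6.98, 6.35 and 7.44 in FOG2_OE, against 34.4, 37.9 and 39.7 in WT. That is 0.0876 CPM in FOG2_OE against 0.483 CPM in WT, 5.51-fold lower, with a log2 fold change of -2.44 per the authors' deposited table (implied SE 0.55, adjusted p = 0.00033). MSTRG.27802 (chromosome 14, 65973329 to 65973474), listed opposite to Clu, had 145 of its 146 bases in a Clu exon. Its fitted counts were 2.34, 2.13 and 2.49 in FOG2_OE, against 16.2, 17.9 and 18.7 in WT, a log2 change of -2.89 by the authors' deposited table (implied SE 0.80, adjusted p = 0.0043). Both calls held at the centred scale and were lost with 10 residual degrees of freedom (adjusted p = 0.0666 and 0.122, F test on the authors' likelihood ratio). None of the 6 other features within 100 kb of Clu was called, nor had an unadjusted p under 0.05, per the authors' deposited table, and their median log2 change there was -0.0082.

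Dkk3 had a single feature, and it fell on few counts. MSTRG.77622 (chromosome 7, 112150610 to 112150745), listed opposite to the gene, had 135 of its 136 bases in a coding exon of Dkk3. Fitted counts were 0.339, 0.309 and 0.362 in FOG2_OE, against 8.39, 9.24 and 9.69 in WT. After rounding, this is 1 count over FOG2_OE and 27 over WT, a ratio of 0.0362 (95% counting interval 0.00088 to 0.22). The authors' deposited table put its log2 fold change at -4.35 (implied SE 1.64, adjusted p = 0.0068), while the fitted values themselves give a log2 ratio of -4.79. With 10 residual degrees of freedom the call was lost (adjusted p = 0.136, F test on the authors' likelihood ratio). The 3 other features within 100 kb of Dkk3 were linked to the neighbouring gene Usp47. They lay between 112109447 and 112110852, past the end of Dkk3, which is on the minus strand and ends at 112116017. All 3 were also below 0, at log2 values of -3.04 to -1.78 by the authors' deposited table. There, 3 were lower before adjustment and none after it, with a lowest adjusted p of 0.0674.

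Pam carried 25 of the 48 features and no call, with 7 lower and 1 higher at an unadjusted p under 0.05 per the authors' deposited table, where 12.5% of all features were lower and 4.52% higher. Of the 23 inside its 301 kb body (chromosome 1, 97795114 to 98095646), all listed opposite to the gene, 21 lay below 0 per the authors' deposited table, or 19 at the centred scale. Per the authors' deposited table their median log2 change was -0.66. Summed over the 25, the level was 7.11 CPM in FOG2_OE against 11.7 CPM in WT, 1.65-fold lower.

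Sums were lower in FOG2_OE over Pam exons and within Pam introns, with no test of either sum. The 14 over exons all lay below 0 per the authors' deposited table, from -1.39 to -0.21, and summed to 5.18 CPM in FOG2_OE against 8.40 CPM in WT, 1.62-fold lower. The 9 in introns ran from -1.11 to 0.98 per the authors' deposited table, and summed to 1.76 CPM in FOG2_OE against 3.17 CPM in WT, 1.80-fold lower. Most of both intron sums came from 1 feature, MSTRG.3203, at 1.05 CPM in FOG2_OE against 2.21 CPM in WT. In 7 of the 14, at least 95% of the bases were exonic.

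MSTRG.3203 (chromosome 1, 98085055 to 98090856) was the most abundant, an intronic feature of 5802 bases beginning 4.79 kb from the Pam start. It had fitted counts of 83.6, 76.0 and 89.1 in FOG2_OE, against 157, 173 and 182 in WT, or 1.05 CPM in FOG2_OE against 2.21 CPM in WT. Its log2 fold change of -1.07 just missed the call per the authors' deposited table (implied SE 0.38, interval -1.81 to -0.33, adjusted p = 0.0702). Among features with a mean fitted count of at least 20 alone, it passed (adjusted p = 0.0482, the authors' p-values adjusted again over those kept), as 1 of 5 lower calls among 17 of the 48, where 7.86% of all such features were lower and 1.98% higher. The 10 Pam features above that mean all lay below 0 per the authors' deposited table, from -1.07 to -0.21. At the gene start, the overlapping pair MSTRG.3204 and MSTRG.3205, 0.438 and 0.446 kb upstream, gave no call; MSTRG.3205 had a log2 fold change of -0.16 per the authors' deposited table (implied SE 0.65). MSTRG.3204 (chromosome 1, 98096084 to 98096205) held 14 counts over FOG2_OE and 2 over WT after rounding, a ratio of 6.76 (95% counting interval 1.57 to 62.1). It was not called per the authors' deposited table (log2 fold change 2.55, interval -0.048 to 5.15 from the implied SE, adjusted p = 0.195). It was the 1 feature of the 48 that was higher at an unadjusted p under 0.05 per the authors' deposited table.

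**Figure D3:**
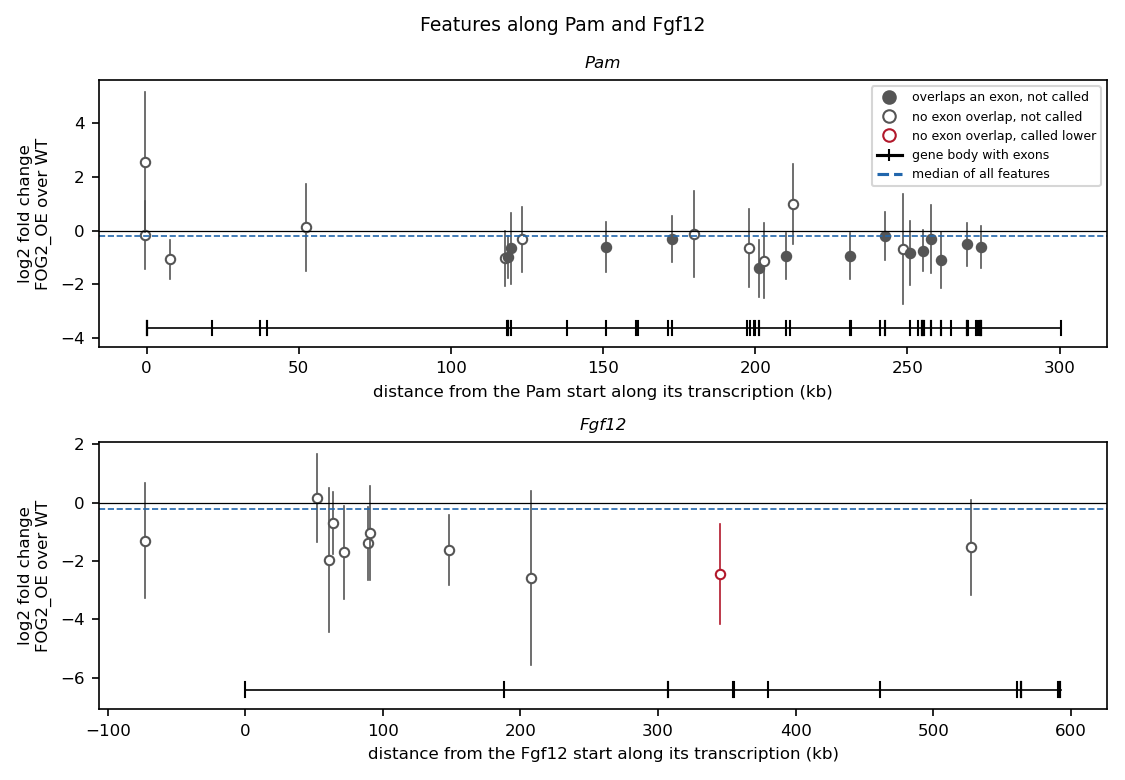
Log2 fold change of FOG2_OE over WT (y axis, from the authors' deposited table) against distance from the gene start along transcription, in kb (x axis), for the 25 Pam and the 11 Fgf12 features, with bars as 95% intervals from the implied standard errors and exons as ticks on the black line. Filled points overlap exons, and the red point is MSTRG.33579, the 1 call at Fgf12; all but 1 of the Fgf12 points and 22 of the 25 Pam points lie below 0.

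Fgf12 features were low in level and mostly below 0, with 1 call. The gene spans 593 kb on chromosome 16 (28160098 to 28753068), and 10 of its 11 features lay in its introns, all listed opposite to the gene, with none over an exon. All 11 had a mean fitted count under 20, and the highest level among them in WT was 0.22 CPM. MSTRG.33579 (chromosome 16, 28407649 to 28407851), 345 kb into the gene, had fitted counts of 1.67, 1.52 and 1.78 in FOG2_OE, against 8.62, 9.50 and 9.96 in WT. It was called lower per the authors' deposited table (log2 fold change -2.44, implied SE 0.88, adjusted p = 0.0409), just inside the threshold, but not at the centred scale (adjusted p = 0.0801, likelihood ratio recomputed from the authors' fitted values).

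Of the other 10 Fgf12 features, 9 lay below 0 per the authors' deposited table without a call. The most abundant, MSTRG.33587 (chromosome 16, 28689491 to 28689606), had fitted counts of 10.6, 9.68 and 11.3 in FOG2_OE, against 15.5, 17.1 and 18.0 in WT. It stood at 0.134 CPM in FOG2_OE against 0.218 CPM in WT, with a log2 fold change of -0.70 per the authors' deposited table (interval -1.78 to 0.37, adjusted p = 0.553). The exception, MSTRG.33589 (chromosome 16, 28701200 to 28701385), is also the one nearest to the gene start, 51.7 kb away, and had fitted counts of 6.55, 5.96 and 6.98 in FOG2_OE, against 5.27, 5.81 and 6.09 in WT. Its log2 fold change was 0.15 per the authors' deposited table (interval -1.35 to 1.65, adjusted p = 0.97). Summed over the 11, the level was 0.537 CPM in FOG2_OE against 1.31 CPM in WT, 2.43-fold lower. Just past the end of Fgf12, MSTRG.33555 and MSTRG.33556, beyond 100 kb of any protein-coding gene start and thus not among the 48, were called lower per the authors' deposited table, at log2 values of -1.80 and -1.63 (adjusted p = 0.0208 and 0.031).

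**Figure D4:**
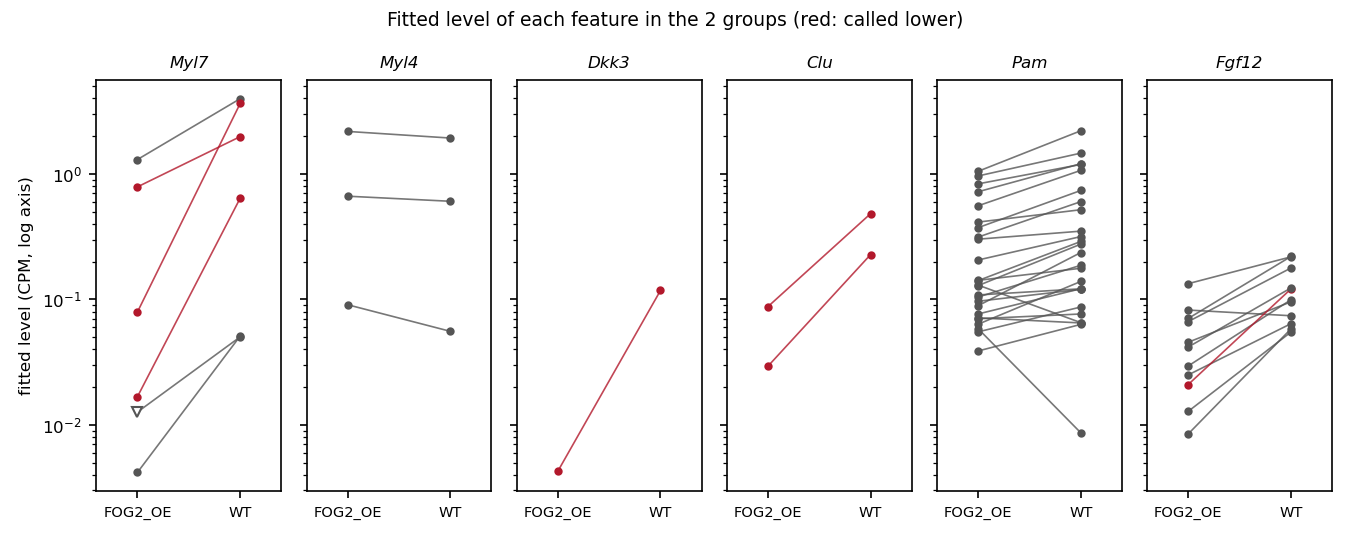
Fitted level of each of the 48 features in FOG2_OE (left) and WT (right) in CPM on a log axis, 1 panel per gene and 1 line per feature; points are fitted group values with no replicate spread, and the open triangle is MSTRG.11501, fitted at 0 in FOG2_OE and drawn at the floor of 3 counts over the group. Red lines are the 7 features called lower; the 2 most abundant Myl4 lines are nearly flat, while Clu and Dkk3 lines and the 2 steepest red Myl7 lines descend toward FOG2_OE.

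Per kb of listed feature, the order of the genes differed between the groups. In FOG2_OE the summed level was 0.618 CPM per kb at Pam, 0.334 at Myl7, 0.314 at Myl4, 0.287 at Fgf12, 0.12 at Clu and 0.0313 at Dkk3. In WT it was 1.58 CPM per kb at Myl7, 1.02 at Pam, 0.866 at Dkk3, 0.73 at Clu, 0.699 at Fgf12 and 0.278 at Myl4. Myl7 thus stood 1st in WT and Myl4 last, while in FOG2_OE the 2 light chain genes stood side by side. The table holds no error for these sums, so that neighbours in either order cannot be told apart. Levels and lengths of overlapping features, such as MSTRG.11504 and MSTRG.11505 at Myl7, are counted in full.

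By position, the calls are few and are set beside the 4.65% of all features called lower. Position and gene cannot be told apart here. Of the 6 features past a gene end, 5 are at Myl7, and of the 21 intronic ones, 9 are at Pam and 10 at Fgf12. Of the 6 features past a gene end, 3 were called lower per the authors' deposited table, and their median log2 value there was -4.10; MSTRG.11504 and MSTRG.11505, which overlap, are 2 of these 3. Features overlapping exons of their gene gave 3 lower calls of 18 (median -0.79 per the authors' deposited table), and intronic ones 1 of 21 (median -1.03), which at 4.76% is near the share of all features. The 3 features upstream of a gene start gave 0 calls per the authors' deposited table, with 1 higher and 0 lower before adjustment. Because the kit does not mark strand, antisense transcripts and the host mRNA over the same exons cannot be told apart for these 18 features, which include the calls at the Myl7 start, at Dkk3 and 1 of those at Clu.

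Of 18 other atrial genes, 13 had linked features, 135 in all, and the authors' deposited table calls 14 of these (10.4%) lower and 0 higher, where 4.65% of all features are lower and 1.16% higher, at a median log2 change of -0.28. Before adjustment 22 (16.3%) were lower and 11 (8.15%) higher, where 12.5% of all features were lower and 4.52% higher. Of the 14 calls, 9 were among the 12 features of Kcnj3, which encodes a subunit of the acetylcholine-activated potassium channel (-3.71 to -1.77), and 3 among the 6 of Sln, which encodes the calcium pump inhibitor sarcolipin (-1.51 to -1.01, all as log2 values of the authors' deposited table). The others were 1 of 14 at Nr2f1, an orphan nuclear receptor gene (MSTRG.24566, -2.24), and 1 of 3 at Angpt1, which encodes the ligand angiopoietin 1 (MSTRG.29896, -3.0, per the authors' deposited table). The 56 features of Nr2f2, the gene of the atrial identity factor COUP-TFII, the 22 of Kcna5, an atrial potassium channel gene, the 6 of Tbx5 and the 2 of Nppa gave no call per the authors' deposited table. Before adjustment 4 Nr2f2 and 7 Kcna5 features were higher per the authors' deposited table, and none of Tbx5 and Nppa was.

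Markers of other cell types could be followed only through noncoding features at their genes. The ventricular list gave 18 features from 4 of 7 genes, with 0 called per the authors' deposited table, and summed to 2.82 CPM in FOG2_OE against 3.22 CPM in WT; Myl2, Irx4 and Hey2 had no linked feature. Fibroblast genes (15 features) summed to 4.87 CPM in FOG2_OE against 5.32 CPM in WT, endothelial genes (10) to 3.49 CPM in FOG2_OE against 2.54 CPM in WT, and epicardial genes (5) to 6.51 CPM in FOG2_OE against 5.97 CPM in WT. Macrophage genes (2) stood at 0.103 CPM in FOG2_OE against 0.135 CPM in WT, and glial and neuronal genes (3) at 0.48 CPM in FOG2_OE against 0.682 CPM in WT. None of the features of these lists was called per the authors' deposited table; before adjustment 1 fibroblast feature was higher, and 1 ventricular and 1 glial or neuronal feature were lower. Postn, Tie1, Upk3b, Msln, Adgre1, Ptprc, Th, Shox2, Isl1 and Cntn2 also had no linked feature. Smooth muscle genes (5 features) summed to 0.573 CPM in FOG2_OE against 0.406 CPM in WT, with 1 at Acta2 called higher per the authors' deposited table. That feature stood at 0.221 CPM in FOG2_OE against 0.00433 CPM in WT. Without a call, Cnn1 was at 0.154 CPM in FOG2_OE against 0.137 CPM in WT. Myh11 (0.155 against 0.196 CPM) and Tagln (0.0424 against 0.0685 CPM) were lower in FOG2_OE than in WT. Conduction system genes gave 8 higher calls of 22 per the authors' deposited table, at Hcn4 and Cpne5, where 1.16% of all features are called higher, with 12 higher and 2 lower before adjustment. They summed to 8.89 CPM in FOG2_OE against 2.05 CPM in WT, with Hcn4 alone at 7.12 CPM in FOG2_OE against 0.779 CPM in WT. The 2 features of Tbx3 went the other way without a call, at 0.570 CPM in FOG2_OE against 0.761 CPM in WT. The part of these markers in the atrial results was not tested.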

How the data were processed

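RNA of 6 left atrial libraries was measured, 3 FOG2_OE and 3 WT, grouped by title. Per the labels' protocols, ribosomal and polyadenylated species were removed and the TruSeq RNA v2 kit was used. The submitters' processing notes name STAR, HTSeq 0.6.0, edgeR, deepTools and mm10, with no roles. The authors' deposited table gives per feature its log2 fold change with its log2 CPM, the score of a likelihood ratio test, and a p-value before and after adjustment. Its 6 sample columns were fitted values, constant multiples of each other within a group (largest relative spread 1.8e-14), so that no count test, left-out replicate or replicate block could be run, and the authors' test is the result reported.

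Computed here: effective library sizes from 718 features above 300 fitted counts in both groups; a dispersion per feature that turns the fitted values into the authors' likelihood ratio (where that is 0.1 or more, otherwise the median of like-abundance features); the implied standard errors; and calls under other settings. Of the 48 features, 44 had a solved dispersion. The procedure was tested on simulated data. Starts in the table count from 0 and are printed from 1. Counting intervals and floors (3 counts over a group) cover counting error only. Intervals from the implied standard errors also take in the dispersion of each feature. P-values measure only the spread between these libraries, which may be technical, since the labels do not say that each came from a separate animal.

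The genes, lists and alternatives were chosen with earlier results of these data known. Named are all called features, each gene's most abundant feature and that nearest to its start; others named outside this rule were chosen after their values were seen. The software was Python 3.11.15 with pandas 2.3.3, scipy 1.17.1, numpy 2.4.6 and matplotlib 3.10.9.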

Additional observations from a re-analysis of the deposited data

How the results depend on the processing

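Under every alternative run, 0 of the 48 features were called higher (1 at an unadjusted p under 0.05 by the authors' likelihood ratio test). The 7 lower calls became 2 under an F test with 10 degrees of freedom for the residual. With 4 they became 0 (9 before adjustment), where 0% of all features passed. They became 4 with features of a mean fitted count of at least 10 (24 of the 48 kept) and 4 with features over gene bodies only (39 kept), both of which hold fewer features by construction. They became 5 at the centred scale, 5 with a mean fitted count of at least 20 (17 kept), 5 at an adjusted p under 0.01, 7 with links within 50 kb and 6 with overlapping features merged (46 kept). The log2 ratio of the summed Myl7 level was -1.33 over the gene body alone, which leaves MSTRG.11513, against -2.24 over all 6 features. No other summed level moved by more than the implied standard error of its gene's most abundant feature. No sum and none of the 14 features named by the rule changed sign. MSTRG.3205 at Pam, named outside the rule, went from -0.16 to 0.054 at the centred scale. A pseudocount of 0.05 CPM moved the log2 fold changes of 6 of the 14 named features toward 0 by more than their implied standard error: MSTRG.11505 to -4.84, MSTRG.11504 to -3.37, MSTRG.27802 to -1.81, MSTRG.77622 to -1.63, MSTRG.33579 to -1.27 and MSTRG.3204 to 0.89. No paired analysis was possible because the sample columns hold fitted values; leaving out each replicate, edgeR and DESeq2 were not run for the same reason. With 31 of the 48 features under a mean of 20 fitted counts, small changes were not detectable at this depth.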
